A study of Saccharomyces cerevisiae with 96 samples.

Results

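The middle phase of RNA decay in the Nmd+ yeast strain was described by comparing RNA at 20, 25 and 30 min with RNA at 6, 8 and 10 min after transcription was blocked. The Nmd+ strain was S288C, a haploid of mating type alpha that is CUP1 and SUC2 and carries mal, mel and gal2 as well as flo1 and flo8-1, with an intact UPF1 gene. All cultures received thiolutin at 10 µg/ml, so the early window (6-10 min) and the later window (20-30 min) share the drug, and no array of a culture kept without thiolutin over the same minutes was used here. The comparison used 17 of the 96 arrays of the series, 8 at 20-30 min and 9 at 6-10 min, chosen by the strain, time and replicate number in the sample titles. The source label of the arrays goes against these titles, since it names upf1- cells even for every Nmd+ array and gives 0 min where a title says 2 min. Groups here follow the titles. Each replicate number is 1 time course, in which a single culture was sampled repeatedly, so the 17 arrays stand for 3 independent cultures. The other strain, YRZ1, has the same background with UPF1 replaced by the KanMX4 cassette (Nmd-), and it enters the list of RNAs higher in Nmd- at 0 min, the time courses over the full hour and the comparison of the strains.

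Nonsense-mediated mRNA decay (NMD) is a surveillance pathway in which Upf1p, with its partners, triggers decapping and rapid decay of transcripts whose translation ends too early. Thiolutin inhibits the nuclear RNA polymerases, and after it is added the amount of an mRNA should fall at the pace set by its decay. The drug is also known to induce some heat shock and stress genes, so a rise in signal under thiolutin is not by itself unusual. Yeast mRNAs differ widely in half-life, and those that encode factors for ribosome assembly are known as a short-lived and co-regulated group.

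The values are log2 signals of Affymetrix YG-S98 arrays after robust multi-chip average, which gives every array the same overall distribution. A change is therefore relative to the average RNA of an array, and a loss shared by all transcripts does not appear. A value of 1 on this scale is a doubling relative to that average. Bulk RNA also cannot separate fewer cells expressing a gene from less RNA per cell. When the arrays were scaled instead on transcripts that the study took as stable, the median change of all probe sets moved by -0.35 on the log2 scale, and changes below are given without that shift unless it is named.

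Strain markers were checked first. UPF1 ranged between 5.59 and 6.40 at 20-30 min and between 5.80 and 7.28 at 6-10 min in the Nmd+ arrays used, while the KanMX4 probe set ranged between 3.34 and 5.35 and between 3.54 and 5.52. In 6 arrays of the series at least 1 of these markers went against the title, and all 6 were left out. Both markers did so in the 4 titled Nmd-, and KanMX4 alone in the 2 titled Nmd+. Among the 6 was the Nmd+ array at 20 min of replicate 1, whose KanMX4 value was 8.28. Its UPF1 value, 6.27, was within the range of the Nmd+ arrays used. Mating type alpha markers such as MF(ALPHA)1 and SAG1 lay above 98.3% and 97.1% of all probe sets. Of the mating type a markers, STE2, BAR1 and STE6 were low, above 7.81%, 11.5% and 30.1% of probe sets. MFA2, another of them, lay above 67.8%. Replicate 1 was scanned in the first of 3 scan periods and replicates 2 and 3 in the second, so a scan period here is the same thing as a set of cultures.

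At 20-30 min against 6-10 min, 393 of 9275 probe sets were called higher (4.24%) and 627 were called lower (6.76%), where a call required an adjusted p under 0.05 in limma and at least a 1.5-fold change. Of these, 385 and 614 moved the same way in all 3 courses. In 40 of the probe sets called higher and 119 of those called lower, the arrays of the windows did not overlap at all. Over all probe sets this was so in 2.04%. Calls and overlap come from the same arrays, so the overlap describes the calls and is no separate support for them. The changes were mostly modest: 116 probe sets called higher and 234 called lower passed 2-fold, and 12 and 6 passed 4-fold. Of the probe sets with 1 gene name 5.15% were called higher and 8.83% lower, beside 1.68% and 1.35% of those without a name. With the probe sets split by mean signal into 3 equal parts, 1.26% were called higher and 2.33% lower in the dimmest part, and 6.95% and 10.1% in the brightest. With the arrays scaled on the stable transcripts (the stable-transcript scale), 134 of the 9275 probe sets were called higher and 1763 lower. Counts of lists on that scale are to be read beside these totals, not beside 4.24% and 6.76%.

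When the arrays of each course and window were first averaged, so that each culture counted once, 255 probe sets were called higher and 369 lower, and 249 and 368 of these were among the calls given above. With 3 cultures, an exact permutation test of a single value cannot give a two-sided p below 0.25, and the adjusted p-values rest on the spread estimated across all probe sets. Each SE and adjusted p given for a gene comes from the fit over arrays, in which the arrays of a culture count as separate values. These figures can therefore understate the spread between cultures, and for some genes the values of the 3 courses are given as well. In replicate 1 alone, which is also the first scan period, 99 probe sets were called higher and 319 lower. In replicates 2 and 3 alone 454 and 612 were called.

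**Figure D1:**
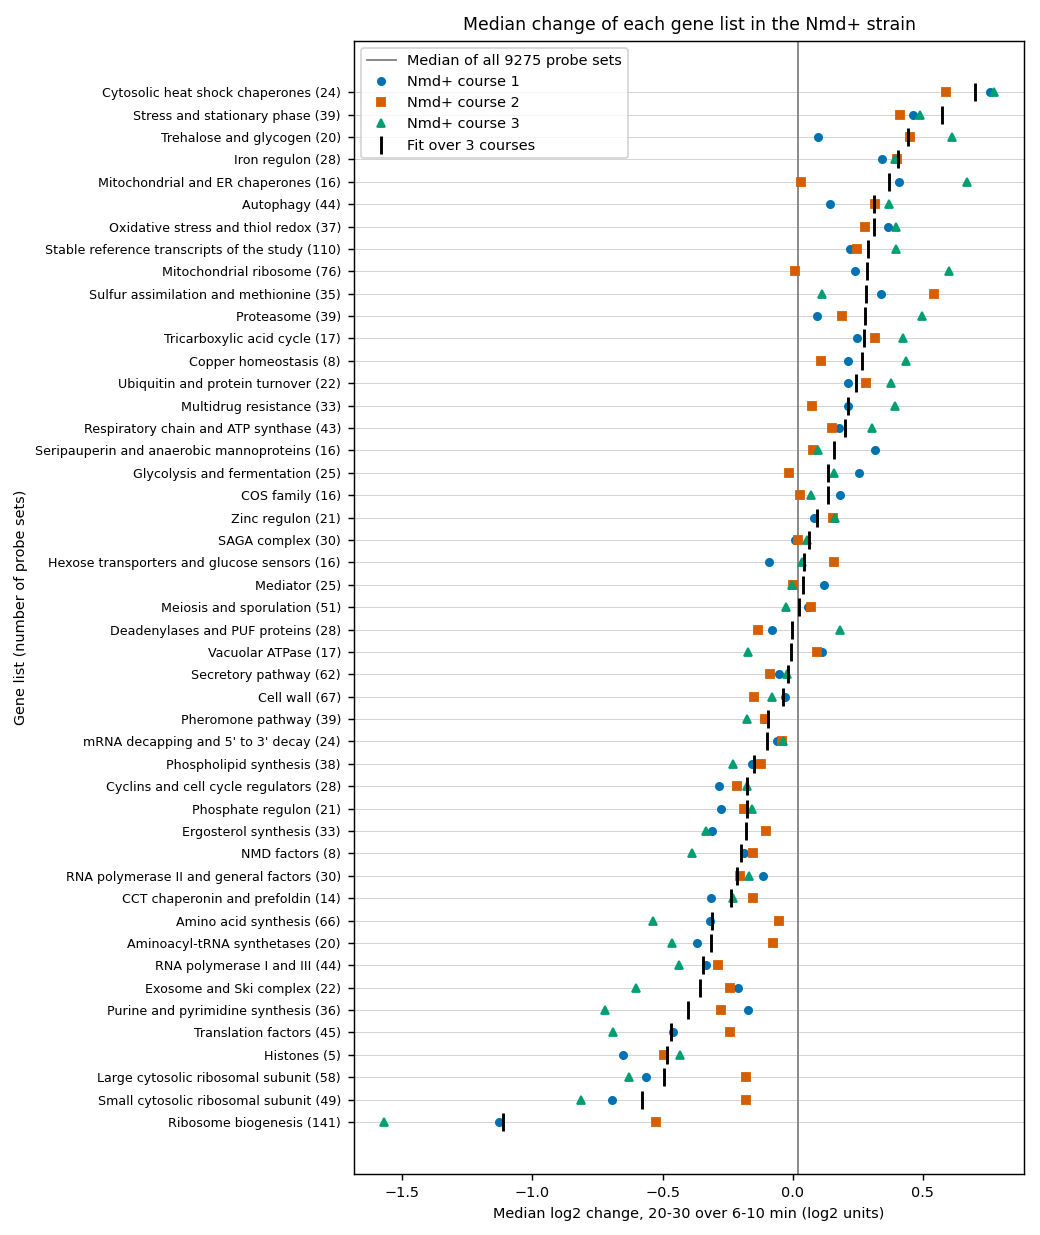
Median log2 change from 6-10 to 20-30 min over the probe sets of each gene list in the Nmd+ strain, with 1 symbol for each of the 3 time courses, a black bar for the fit over them and a grey line for the median of all probe sets. By the fit, ribosome biogenesis lies furthest to the left, with course medians of -1.13, -0.53 and -1.57, and cytosolic chaperones furthest to the right, with 0.76, 0.59 and 0.77.

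Transcripts for ribosome assembly fell almost throughout. Of 141 probe sets in the ribosome biogenesis list, 122 fell (86.5%, beside 6.76% of all probe sets) and 0 rose, and 113 of the 121 genes had at least 1 probe set that fell. The median change of the list was -1.11, against 0.02 over all probe sets, and it was -1.46 with the stable transcripts as the scale. The mean signal of the list in an array ran between 4.93 and 6.08 at 20-30 min and between 6.15 and 7.20 at 6-10 min, so every later array lay under every earlier one. Course 2 showed the smallest median change, -0.53, and course 3 the largest, -1.57. With each culture counted once, 78 of the 141 probe sets were called lower, and in replicate 1 alone 71.

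Ribosome assembly starts in the nucleolus, where RNA polymerase I transcribes the large precursor of rRNA. Small nucleolar ribonucleoproteins (snoRNPs) modify it, the small subunit processome folds and cleaves the part that becomes the 40S subunit, and a separate set of GTPases, helicases and scaffolds builds the 60S subunit. NSR1, the yeast relative of nucleolin, fell most within the list: its 20-30 min arrays had a lowest, median and highest signal of 5.10, 6.39 and 7.89, against 7.87, 8.84 and 10.29 at 6-10 min. The log2 change was -2.61 ± 0.29 (SE), or 0.164 of the early level, with an adjusted p of 1.04e-05 in limma. The windows touched at a single point, because the highest later array was just above the lowest earlier one.

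All 9 probe sets for snoRNP core proteins fell, with a median of -1.51. NOP1, the fibrillarin methyltransferase of box C/D snoRNPs, had 6.31, 7.58 and 9.24 as its lowest, median and highest value at 20-30 min and 8.87, 9.73 and 10.35 at 6-10 min (change -2.06 ± 0.24, SE). NHP2, a component of the box H/ACA snoRNPs that guide pseudouridylation, ranged between 7.72 and 8.99 at 20-30 min and between 8.91 and 10.26 at 6-10 min, with a change of -1.51 ± 0.16 (SE). Both fell in each of the 3 courses, and for both the highest later array overlapped the lowest earlier one.

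In the small subunit processome and 40S assembly group, 38 of 52 probe sets fell, with a median of -0.99. UTP13 had 3.60, 4.69 and 6.07 at 20-30 min, entirely below the 6.09, 6.64 and 7.46 at 6-10 min, and its change was -1.98 ± 0.28 (SE). EMG1, an rRNA methyltransferase, changed by -1.63 ± 0.17 (SE) and its windows met at 7.46. The probe sets that did not fall were mostly extra probe sets of 2 genes. UTP20 was measured by 10 probe sets, of which 4 fell, with changes between -1.80 and -0.90, while the others reached up to 0.15. RRP12, which acts in the export and maturation of both subunits, was listed outside these role groups and had 4.20, 4.91 and 6.51 at 20-30 min, all below the 6.60, 7.32 and 8.45 at 6-10 min.

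The 60S assembly group showed 32 of 35 probe sets lower, with a median of -1.13. NOG1, a GTPase of the pre-60S particle, had 5.12, 5.70 and 6.36 at 20-30 min and 6.91, 7.61 and 9.53 at 6-10 min, with a change of -2.24 ± 0.25 (SE). NIP7 and RRS1, which also act in 60S assembly but stood outside these role groups, changed by -2.29 ± 0.30 and -1.90 ± 0.26 (SE). For all 3 genes the windows did not overlap. DBP3 led the RNA helicases, of which 15 of 16 probe sets fell, with 4.61, 5.79 and 6.56 at 20-30 min and 7.11, 7.62 and 8.50 at 6-10 min. All 6 probe sets of the 60S export and cytoplasmic maturation group and all 8 of the late 40S maturation group fell, with medians of -0.99 and -0.89. All medians of the role groups, which were formed with these results known, thus lay between -1.51 and -0.89.

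**Figure D2:**
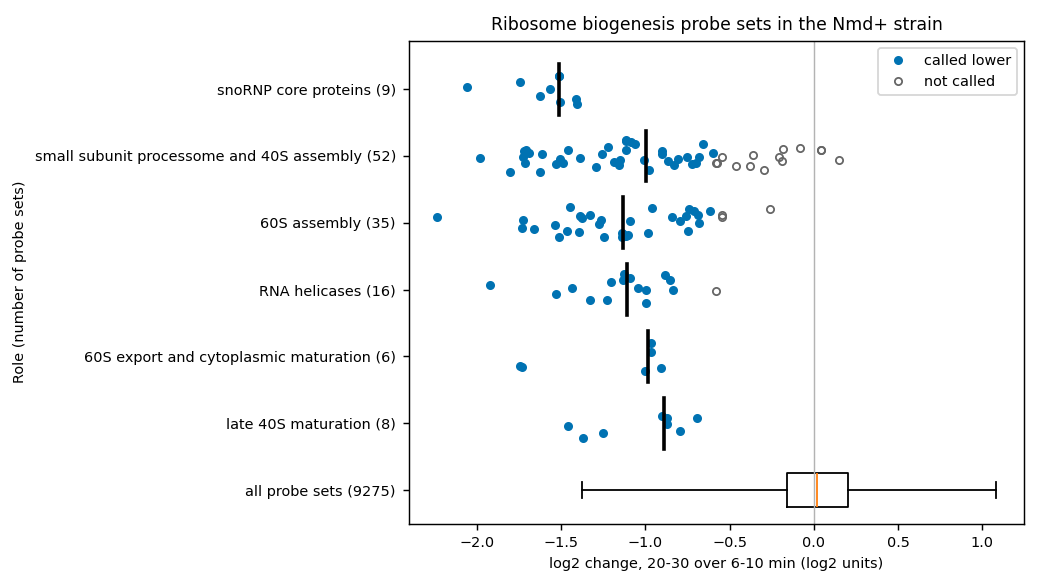
Log2 change from 6-10 to 20-30 min in the Nmd+ strain of the ribosome biogenesis probe sets placed in a role group, with black bars for group medians. At the bottom is a box (quartiles, whiskers at the 1st and 99th percentiles) for all probe sets tested. List members outside the role groups, among them NSR1, NIP7, RRS1 and RRP12, are not drawn. The median of each role group lies left of 0, with 9 of 9 snoRNP probe sets and 38 of 52 processome probe sets called lower.

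The genes for ribosomal proteins themselves had smaller median changes. In the small subunit list 24 of 49 probe sets fell (49.0%) and in the large subunit list 19 of 58 (32.8%), beside 6.76% of all probe sets. The medians were -0.58 and -0.49, and 0 rose in either. By gene, 17 of 34 and 16 of 47 had a probe set that fell. RPS27A, one of the paralog pair for protein eS27, had 8.38, 8.71 and 9.61 at 20-30 min and 9.82, 10.48 and 10.88 at 6-10 min, and it changed by -1.69 ± 0.13 (SE) with similar values in the 3 courses, -1.74, -1.52 and -1.81. Both probe sets of RPS28B fell (-1.58 and -1.33), as did both of RPL7B (-1.49 and -1.44). Most yeast ribosomal proteins are encoded by near-identical gene pairs, and cross-hybridization between paralogs was not resolved. The counts depended on the cultures. With each counted once, 15 and 9 probe sets fell. Without replicate 3 the small subunit list had 13, and without replicate 2 the large subunit list had 30. With the stable transcripts as the scale 40 and 44 fell.

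Subunits of RNA polymerases I and III, which make rRNA, tRNA and 5S RNA, fell in 20 of 44 probe sets (45.5%, beside 6.76% of all). In this list 0 were called higher and the median was -0.34. RPA49, RPA12 and RPC31 changed by -1.89 ± 0.24, -1.71 ± 0.20 and -1.70 ± 0.17 (SE), and RPC19, shared by both enzymes, by -1.78 ± 0.21. RPC31 had 4.04, 4.39 and 4.99 at 20-30 min against 5.59, 6.19 and 6.90 at 6-10 min, with no overlap. Without replicate 3, 13 probe sets of the list fell. In the RNA polymerase II list 5 of 30 fell (16.7%, beside 6.76% of all probe sets), and these 5 (RPO26, RPB8, RPB5, RPC10 and RPB10, between -1.05 and -0.65) are all subunits that the 3 nuclear polymerases share. CCL1, a cyclin of the general factor TFIIH, rose by 0.75 ± 0.12 (SE). None of the 25 Mediator or 30 SAGA probe sets was called. With the stable transcripts as the scale 15 of the 30 RNA polymerase II probe sets were called lower and 0 higher, and 5 Mediator and 6 SAGA probe sets were called lower. Over all probe sets 1763 of 9275 were called lower on that scale, a share near that of Mediator and SAGA.

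Translation factors fell in 15 of 45 probe sets (33.3%, beside 6.76% of all probe sets), with a median of -0.47. The largest changes were those of TIF4631, which encodes the scaffold eIF4G (-1.38), and TIF5, which encodes eIF5. TIF5 had 3.86, 5.10 and 6.06 at 20-30 min and 5.39, 6.32 and 7.01 at 6-10 min, a change of -1.30 ± 0.15 (SE). NIP1, an eIF3 subunit, had windows of 6.31 to 6.92 and 6.98 to 8.23 that did not overlap. DBP1, a relative of the helicase gene DED1, was the only member that rose, by 0.61, and it did not pass with each culture counted once. LIA1, whose product makes the hypusine residue of eIF5A, had 6.93, 7.98 and 9.04 at 20-30 min and 9.45, 10.12 and 10.38 at 6-10 min, and its change of -1.95 ± 0.22 (SE) was among the 10 largest decreases with separate windows. The count for translation factors was 9 with each culture counted once, 8 without replicate 3, 23 without replicate 2 and 29 on the stable-transcript scale. Of 20 probe sets for aminoacyl-tRNA synthetases, 2 fell (10.0%, beside 6.76% of all probe sets). The count was 0 without replicate 3, 7 without replicate 2 and 12 on the stable-transcript scale.

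The largest decrease of all belonged to AAH1, adenine deaminase of the purine salvage pathway. Its signal was 3.71, 4.75 and 5.43 (lowest, median and highest) at 20-30 min and 6.23, 7.37 and 8.41 at 6-10 min, so that every later array was below every earlier one. The change was -2.62 ± 0.28 (SE), or 0.163 of the early level (adjusted p = 8.63e-06 in limma), with -2.77, -1.53 and -3.58 in the 3 courses. In the list for purine and pyrimidine synthesis, 12 of 36 probe sets fell (33.3%, beside 6.76% of all probe sets) and 0 rose. URA7, a CTP synthase, changed by -1.93 ± 0.25 (SE), FUI1, the uridine permease, by -1.59 ± 0.18, and the probe sets of IMD4, an IMP dehydrogenase, by -1.38 and -1.35. PRS1, PRS3, PRS4 and PRS5, which encode subunits of phosphoribosyl pyrophosphate synthetase, fell as well, with changes between -0.87 and -0.76. Scaled on the stable transcripts, 23 of the 36 fell.

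Amino acid synthesis fell in 15 of 66 probe sets (22.7%, beside 6.76% of all probe sets) and rose in 1, with a median of -0.31. Branched-chain enzymes led the decreases, with LEU9 at -1.5, ILV5 at -1.44 and ILV3 at -1.35, and BAT1 at -1.01. ILV3 had 8.44, 9.46 and 10.17 at 20-30 min against 10.01, 10.75 and 11.17 at 6-10 min. SER33, an enzyme of serine synthesis, went the other way, by 0.87 ± 0.11 (SE). The list count was 6 with each culture counted once, 6 without replicate 3, 23 without replicate 2 and 39 on the stable-transcript scale.

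Ergosterol synthesis fell in 10 of 33 probe sets (30.3%, beside 6.76% of all probe sets). They ran from ERG13 and HMG1 at the mevalonate steps (-0.59 and -0.64) through MVD1 (-0.94) and ERG1 (-0.65) to ERG3 and ERG5 near the end of the pathway (-0.82 and -0.91). MVD1 had windows of 7.63 to 8.23 at 20-30 min and 8.64 to 9.29 at 6-10 min. ARE2, which esterifies sterols for storage, rose by 0.61. With each culture counted once 6 members fell and ARE2 no longer passed, and 6 fell without replicate 3. Scaling on the stable transcripts gave 16 that fell, and ARE2 was not called.

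Of 67 cell wall probe sets 10 fell (14.9%, beside 6.76% of all probe sets) and 2 rose (2.99%, beside 4.24%). On the stable-transcript scale 25 fell and 0 rose. Of the 8 genes that fell, UTR2, a chitin transglycosylase, changed by -1.25 ± 0.15 (SE). SCW10, a glucanase relative, fell in 1 of its 2 probe sets (-1.24 ± 0.13), and the other changed by -0.45. FKS1, the catalytic subunit of glucan synthase, fell in 3 of its 8 probe sets. The others were DSE2 and EGT2, expressed in daughter cells, WSC2, a sensor of wall stress (-0.78), GAS1, a glucan-elongating enzyme (-0.62), and CHS3, a chitin synthase (-0.60). DSE2 had 10.12, 10.31 and 10.61 at 20-30 min and 10.99, 11.16 and 11.46 at 6-10 min, without overlap. The genes that rose were SPI1 and PIR3, 0.65 and 0.70, both known to respond to stress. In replicates 2 and 3 alone 6 cell wall probe sets fell.

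Cyclins and cell cycle regulators fell in 7 of 28 probe sets (25.0%, beside 6.76% of all probe sets) and rose in 0. These 7 were FAR1, CLB1, CLN1, CLN2, CLB2, CDC5 and PCL1. CLN2, a G1 cyclin, had 4.77, 5.17 and 5.78 at 20-30 min and 5.90, 6.04 and 6.37 at 6-10 min, a change of -0.84 ± 0.12 (SE). FAR1, the inhibitor that arrests cells in response to pheromone, changed by -1.65 ± 0.28, with -1.44, -2.50 and -0.96 in the courses. It was also the largest of the 6 decreases among 39 pheromone pathway probe sets (15.4%, beside 6.76% of all probe sets). The 6 included STE12, the transcription factor of the pathway (-0.76 ± 0.10), AGA1 (-0.92 ± 0.12) and the a-factor receptor STE3 (-0.72 ± 0.14). STE3 did not pass with each culture counted once. Of 5 histone probe sets 1 fell (20.0%, beside 6.76% of all probe sets), HTB2 for histone H2B (-0.66 ± 0.10, SE). For phospholipid synthesis 3 of 38 fell, 1 of CDS1 and 2 of FAS1, a share of 7.89% that is near the 6.76% of all probe sets. On the stable-transcript scale 13 cell cycle, 16 pheromone, 4 histone and 16 phospholipid probe sets fell, beside 1763 of all 9275.

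Phosphate genes fell in 5 of 21 probe sets (23.8%, beside 6.76% of all probe sets). PHO84, the high-affinity phosphate transporter, had 6.69, 8.00 and 10.23 at 20-30 min and 8.26, 9.63 and 11.91 at 6-10 min. These windows overlapped because the courses started at different levels, and within courses the changes were close, -1.80, -1.56 and -1.91 (combined -1.75 ± 0.18, SE). The low-affinity transporters PHO90 and PHO87 and the acid phosphatase PHO3 changed by -0.94, -0.64 and -1.30, and these 3 did not pass with each culture counted once. With stable-transcript scaling 8 of the 21 fell. PTR2, the peptide transporter, changed by -1.55 ± 0.17 (SE).

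Chaperone transcripts moved in the opposite direction. Of 24 probe sets for cytosolic heat shock chaperones, 13 rose (54.2%, beside 4.24% of all probe sets) and 0 fell, and the same number passed with each culture counted once. The list median was 0.70, and it stayed above 0, at 0.35, with the stable transcripts as the scale, where 8 members rose. The mean signal of the list lay between 10.05 and 10.60 at 20-30 min and between 9.22 and 9.88 at 6-10 min, without overlap. The genes that rose included members of the Hsp70, Hsp90, Hsp104, Hsp110 and small heat shock protein families.

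BTN2, which directs misfolded proteins into inclusions, rose most within the list. Its arrays had 9.99, 10.24 and 10.46 at 20-30 min and 6.67, 6.86 and 8.94 at 6-10 min, a change of 2.71 ± 0.30 (SE), or 6.56-fold, with an adjusted p of 1.04e-05 in limma. SSA4, the inducible cytosolic Hsp70, had 10.39, 11.00 and 11.50 against 8.69, 9.14 and 9.90, a rise of 1.81 ± 0.20 (SE). APJ1, a J-protein partner of Hsp70, rose by 1.81 ± 0.21. In each of these genes the windows were separate. FES1 and SSE2, which help Hsp70 to exchange its nucleotide, rose by 1.08 ± 0.11 and 1.03 ± 0.11, and the J-protein gene SIS1 by 0.75 ± 0.09. HSP82, HSP42, HSP104 and STI1 rose by 1.19, 1.29, 0.78 and 0.93.

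Among 16 probe sets for chaperones of mitochondria and the endoplasmic reticulum, 5 rose (31.2%, beside 4.24% of all probe sets). These were MDJ1 (1.46), ERO1 (1.33), HSP78 (1.16), SIL1 (0.75) and KAR2 (0.63). HSP78, a disaggregase of the mitochondrial matrix, had 8.21, 8.51 and 9.04 at 20-30 min and 6.70, 7.44 and 8.18 at 6-10 min. The count for this list was 3 with each culture counted once, 3 without replicate 3 and 9 without replicate 2, and on the stable-transcript scale 3 rose and 2 fell. For the cytosolic chaperonin CCT and its partner prefoldin 0 of 14 probe sets were called and the median was -0.24. Under the scaling on stable transcripts 7 of them were called lower.

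In the stress and stationary phase list 18 of 39 probe sets rose (46.2%, beside 4.24% of all probe sets) and 0 fell, with a median of 0.57. On the stable-transcript scale 10 rose and 1 fell, with a median of 0.23. HSP30, a heat shock protein of the plasma membrane, had 10.16, 11.27 and 11.57 at 20-30 min and 7.29, 9.01 and 10.53 at 6-10 min, a rise of 2.19 ± 0.26 (SE). ALD3, an aldehyde dehydrogenase, rose by 1.58 ± 0.17, the small heat shock gene HSP26 by 1.39 ± 0.16 and the DNA damage responsive gene DDR2 by 1.03 ± 0.12. With each culture counted once 17 probe sets rose, and in replicate 1 alone 5. SPG4, a stationary phase gene outside the list, had the largest increase of all probe sets, 2.78 ± 0.33 (SE), with 4.80, 7.75 and 9.75 at 20-30 min and 4.10, 5.06 and 5.99 at 6-10 min. Its windows overlapped because of the 20 min array of course 2 alone, since the next lowest later array had 7.43.

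**Figure D3:**
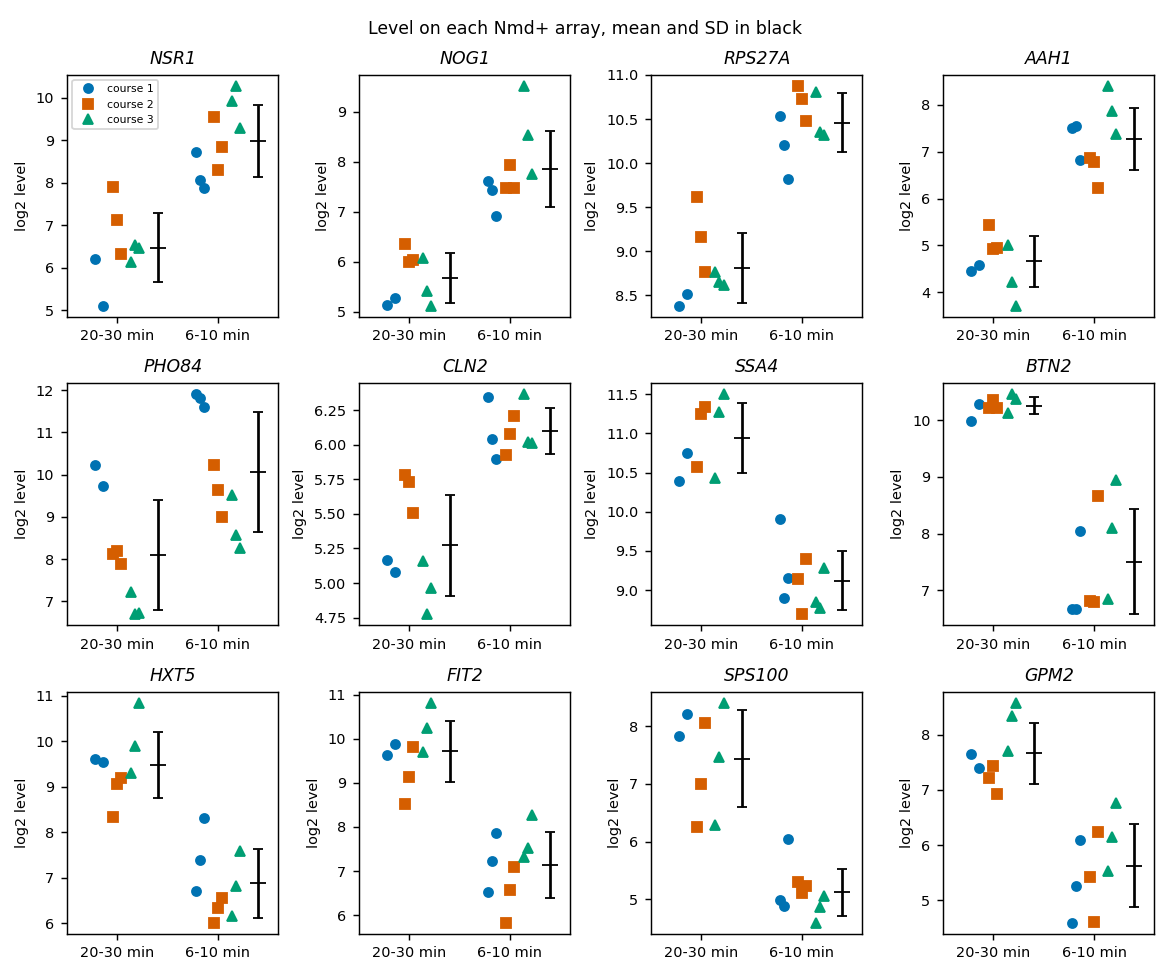
Log2 signal of selected genes in each Nmd+ array, with the 20-30 min arrays on the left and the 6-10 min arrays on the right of each panel, a symbol for each course and the mean and SD over arrays in black. AAH1 and BTN2 show complete separation of the windows, while in PHO84 the courses differ in level and each falls by a similar step.

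Oxidative stress and thiol redox genes rose in 13 of 37 probe sets (35.1%, beside 4.24% of all probe sets) and fell in 0. The median was 0.31, which became -0.04 on the stable-transcript scale, where 8 rose. OYE3, an NADPH oxidoreductase, had 6.69, 8.40 and 10.11 at 20-30 min and 5.58, 6.21 and 8.44 at 6-10 min, a rise of 1.98 ± 0.24 (SE). The peroxisomal and cytosolic catalases CTA1 and CTT1 rose by 1.93 and 1.21, and the peroxidases GPX2, PRX1, TSA2 and CCP1 by 1.40, 1.12, 1.14 and 0.83. Sulfiredoxin, SRX1, rose by 1.53. In this list 7 probe sets passed with each culture counted once.

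Iron regulon genes rose in 11 of 28 probe sets (39.3%, beside 4.24% of all probe sets). The median was 0.41 (0.06 on the stable-transcript scale, where 2 rose and 1 fell). Of the 28 probe sets 25 were above 0. FIT2, a cell wall mannoprotein that retains siderophore iron, rose most and had 8.52, 9.76 and 10.82 at 20-30 min against 5.83, 7.22 and 8.28 at 6-10 min. Its rise of 2.59 ± 0.23 (SE), or 6.00-fold, was nearly the same in the 3 courses, 2.55, 2.65 and 2.55. FIT3 rose by 1.08 ± 0.14, the vacuolar iron exporter gene FTH1 by 0.68 ± 0.09, the iron-sulfur scaffold gene ISU1 by 0.82 ± 0.14 and the regulator gene AFT1 by 0.71. The list count was 5 with each culture counted once and 5 without replicate 2. Of 8 copper probe sets 2 were called (25.0%, beside 4.24% of all probe sets called higher). CTR1, the copper transporter, rose by 1.56 ± 0.21 (SE). FRE7 rose by 2.28 in course 3 and by 0.17 and 0.13 in courses 1 and 2, and its call ended without replicate 3. In the zinc regulon 2 of 21 probe sets, IZH1 and IZH2, fell (9.52%, beside 6.76% of all probe sets). On the stable-transcript scale 5 fell, beside 1763 of all 9275.

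Of 35 probe sets for sulfate assimilation and methionine 11 rose (31.4%, beside 4.24% of all probe sets), 0 fell and 24 were not called. The members that rose were SUL1 and SUL2 (sulfate permeases), MET3 (ATP sulfurylase), MET16 (PAPS reductase), MET5 and MET10 (sulfite reductase) and MET1 and MET8 (siroheme synthesis), with MET22, MET2 and the regulator gene MET32, all between 0.59 and 1.46. MET16 had 7.37, 8.79 and 9.27 at 20-30 min and 5.99, 7.49 and 8.31 at 6-10 min, a rise of 1.42 ± 0.18 (SE). In course 3 alone 13 of the 35 were below 0 and the list median was 0.11. The list median over the courses was 0.28 and -0.07 on the stable-transcript scale, on which 6 rose and 1 fell. With each culture counted once 7 passed, and without replicate 1 also 7.

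Autophagy rose in 11 of 44 probe sets (25.0%, beside 4.24% of all probe sets). The median of 0.31 turned to -0.04 on the stable-transcript scale, where 3 rose and 1 fell. ATG8, whose product coats the autophagosome membrane, had 8.68, 9.0 and 9.84 at 20-30 min and 7.28, 8.18 and 8.80 at 6-10 min, a rise of 1.0 ± 0.12 (SE). ATG1, the kinase that starts the process, and ATG7, its E1-like enzyme, rose by 0.64 and 0.75. APE1 and AMS1, vacuolar hydrolases carried by the related Cvt route, rose by 0.98 and 1.01, and their receptor gene ATG19 by 0.73 in 1 probe set, while its other probe set was not called (0.08). ATG1 was lower in course 1, with -0.47. The count was 5 with each culture counted once and 5 without replicate 3.

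Proteasome subunit genes had a median of 0.28 and 37 of 39 probe sets above 0, yet only RPN4, the transcription factor of these genes, was called. It rose by 1.15 ± 0.16 (SE), with 8.48, 9.09 and 9.48 at 20-30 min and 6.79, 7.64 and 9.11 at 6-10 min. On the stable-transcript scale the list median was -0.07. UBI4, the polyubiquitin gene, and DDI1, a ubiquitin receptor, rose by 0.93 and 0.72 among 22 ubiquitin probe sets (9.09%, beside 4.24% of all probe sets). ROQ1, a regulator of the ubiquitin ligase Ubr1, rose by 1.51 ± 0.17 (SE) with separate windows.

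Carbohydrate lists differed in their medians, with 0.44 for trehalose and glycogen, 0.14 for glycolysis and 0.04 for hexose transporters and sensors, beside 0.02 over all probe sets. HXT5, a hexose transporter known from slowly growing cells, had 8.33, 9.43 and 10.85 at 20-30 min and 6.01, 6.70 and 8.32 at 6-10 min, a rise of 2.65 ± 0.26 (SE), or 6.29-fold. HXT1, the low-affinity transporter of glucose-rich cultures, fell by 0.66 ± 0.13, and the other 14 of the 16 transporter and sensor probe sets were not called. SUC2, invertase, rose in 2 of 3 probe sets, by 1.72 and 1.65, and the third had the lowest mean signal of these probe sets. Glucose kinases GLK1 and HXK1 rose by 0.65 ± 0.09 and 0.60 ± 0.12 and were the only 2 of 25 glycolysis probe sets called, and HXK1 did not pass with each culture counted once. Of the 20 trehalose and glycogen probe sets 18 were above 0 and 4 rose (20.0%, beside 4.24% of all probe sets). These were GDB1 and PGM2, of glycogen and glucose phosphate metabolism (0.99 ± 0.13 and 0.82 ± 0.13, SE), ATH1, the acid trehalase (0.64), and GAC1, a phosphatase subunit that acts on glycogen synthase (0.61). Of this list 2 passed with each culture counted once and 7 without replicate 1, and on the stable-transcript scale 1 rose and 1 fell, with a median of 0.09.

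GPM2 and ADH7, chosen by their size, rose by 2.00 ± 0.24 and 2.19 ± 0.32 (SE). GPM2, a paralog of phosphoglycerate mutase, had 6.93, 7.54 and 8.58 at 20-30 min and 4.60, 5.53 and 6.77 at 6-10 min. ADH7, an alcohol dehydrogenase, rose by 3.58 in course 3 but by 1.30 and 1.5 in courses 1 and 2. SPS100, a spore wall gene, rose by 2.36 ± 0.28 (SE). With SGA1 (2 probe sets) and REC102 it made up the 4 called among 51 meiosis and sporulation probe sets (7.84%, beside 4.24% of all called higher). The regulators of meiosis IME1 and IME2 were not called, with changes of 0.05 and 0.22.

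Mitochondrial genes were mostly within 1.5-fold. In the mitochondrial ribosome list 73 of 76 probe sets were above 0 with a median of 0.29, but this became -0.06 on the stable-transcript scale, where 0 were called. The 6 that rose (7.89%, beside 4.24% of all probe sets) were MRP20, MRPS17, RSM24, MRPL32, PET123 and MRPL24, between 0.64 and 0.78. In course 2 alone 38 of the 76 were below 0, and the count was 13 without replicate 2, 3 without replicate 3 and 3 with each culture counted once. Of 43 respiratory chain probe sets 3 rose (6.98%, beside 4.24% of all probe sets). These were CYC7, the cytochrome c isoform of stressed and oxygen-poor cells (1.51 ± 0.19, SE), NDE2, an external NADH dehydrogenase (0.99 ± 0.17), and QCR10 (0.60). PYC1, pyruvate carboxylase, rose by 0.80 ± 0.14 (SE). Among drug resistance transporters TPO1, PDR15 and RSB1 rose, by 1.20, 1.34 and 0.72, of 33 probe sets (9.09%, beside 4.24% of all). Without replicate 1 the count was 7.

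Several lists had no called member. These were the vacuolar ATPase (17 probe sets), the secretory pathway (62), deadenylases and PUF proteins (28), seripauperins and anaerobic mannoproteins (16) and the COS family (16), besides CCT, Mediator and SAGA. Their changes lay between -0.55 and 0.56. With the stable transcripts as the scale, 10 secretory, 3 deadenylase, 2 COS and 1 vacuolar ATPase probe sets were called lower. The share over all probe sets was larger, with 1763 of 9275 called lower, so these counts do not set the lists apart.

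The lists of RNA decay factors differed in their counts. In the decapping and 5' to 3' list 2 of 24 probe sets rose (8.33%, beside 4.24% of all probe sets). These were DCS1, whose product is a scavenger enzyme that acts on cap remnants, and DCS2, by 0.77 ± 0.11 and 0.79 ± 0.12 (SE). DCS2 did not pass with each culture counted once. On the stable-transcript scale 0 of this list rose and 3 fell, beside 134 and 1763 of all 9275 probe sets. In the exosome and Ski list 6 of 22 fell (27.3%, beside 6.76% of all probe sets): MTR4, the nuclear exosome helicase (-1.30 ± 0.19), and MTR3, RRP6, RRP40, MPP6 and LRP1 (between -0.86 and -0.59). MTR3 was higher in course 1, with 0.16. The nuclear exosome also processes rRNA. Only 1 member of this list passed with each culture counted once, and 1 without replicate 3, whereas 16 of the 22 fell on the stable-transcript scale. Whether the lists differ from each other was not tested. Of 8 NMD factor probe sets, 3 fell (37.5%, beside 6.76% of all probe sets), and 3 also on the stable-transcript scale. These were the release factor genes SUP45 and SUP35 (-0.69 and -0.59) and UPF1 (-0.62 ± 0.13, SE), and none of the 3 passed without replicate 3.

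RNAs that were more abundant in Nmd- than in Nmd+ at 0 min were called in the Nmd+ strain at about the background rate or below it. Of the 397 probe sets called higher at 0 min in Nmd- (4.28% of those tested), 18 rose and 6 fell. These shares are 4.53% and 1.51%, beside 4.24% and 6.76% of all probe sets. Their median change was 0.08, beside 0.02. The list was also dimmer, with a mean signal of 5.36, beside 6.09 over all probe sets. In the dimmest part of all probe sets 1.26% were called higher and 2.33% lower. The list was not compared with probe sets of like signal. Whether its members fell less often than such probe sets was therefore not tested. The genes whose decay the study followed one by one were also examined, without YIL164C and YIL168W and with PPT2 added. For PPT2 the study relied on published data. These genes were covered by 20 probe sets of 17 genes, and 0 of these were called, beside 11.0% of all probe sets called in either direction. By limma, 6 of them had an adjusted p under 0.05 with a change below 1.5-fold: SGF11, YRR1, SAS2, ASF2, PPT2 and PDR8. The extremes were SAS2, a histone acetyltransferase gene, with 3.61, 4.10 and 4.54 at 20-30 min and 4.26, 4.65 and 5.21 at 6-10 min (-0.56 ± 0.12, SE), and YRR1, a drug resistance regulator, with 6.17, 6.63 and 6.80 against 5.38, 6.14 and 6.61 (0.57 ± 0.11, SE). SAS2 and SGF11 were called lower on the stable-transcript scale, by -0.91 and -0.82. For some of these genes, such as FZF1, INO4 and RDR1, the study measured half-lives of only a few minutes in Nmd+. Decay before the 6-10 min window is not covered by this comparison, so the absence of calls does not describe it.

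The transcripts used as a stable reference were themselves not flat relative to the array average. The study selected them by long half-lives in a published data set from another laboratory and by the absence of a known heat shock role. It also adjusted their mean trend for their own slow decay, which the scaling used here did not. Of 110 probe sets 28 rose (25.5%, beside 4.24% of all probe sets) and 1, PRM7, fell. Their median was 0.29, against 0.02 over all probe sets. HXT5, CAT8, PHM7 and ARO9 led the members that rose, by 2.65, 1.39, 1.38 and 1.29. KAR2, SIS1, FES1, UBI4, APE1 and AMS1, described above in other lists, were members as well.

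Over the full hour of the Nmd+ courses, 6-10 and 20-30 min lie on the steep part of the main changes. The mean of the ribosome biogenesis list had medians over arrays of 6.89 at 0-2 min, 6.75 at 4 min, 6.50 at 6-10 min, 6.00 at 12-15 min, 5.40 at 20-30 min, 4.91 at 35-40 min and 4.98 at 45-60 min. The chaperone list had 9.24, 9.29, 9.57, 9.89, 10.39, 10.56 and 10.46 at the same times. Both thus changed little after 35 min, and the arrays at 35-40 and 45-60 min overlapped. The small ribosomal subunit list moved later, with medians of 11.12 at 0-2 min, 11.12 at 6-10 min, 10.40 at 20-30 min and 9.58 at 45-60 min.

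Single genes followed different timings. AAH1 had medians of 7.82, 7.84, 7.37, 6.09, 4.75, 3.91 and 3.89 over these windows, BTN2 6.16, 6.14, 6.86, 9.29, 10.24, 9.91 and 9.61, and SSA4 8.77, 8.73, 9.14, 9.67, 11.00, 11.61 and 12.13. BTN2 was thus at its highest median at 20-30 min, while SSA4 and HXT5 had their highest at 45-60 min. SPG4 had medians of 4.23 at 0-2 min, 7.75 at 20-30 min and 9.65 at 45-60 min, with the widest spread between arrays at 20-30 min.

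**Figure D4:**
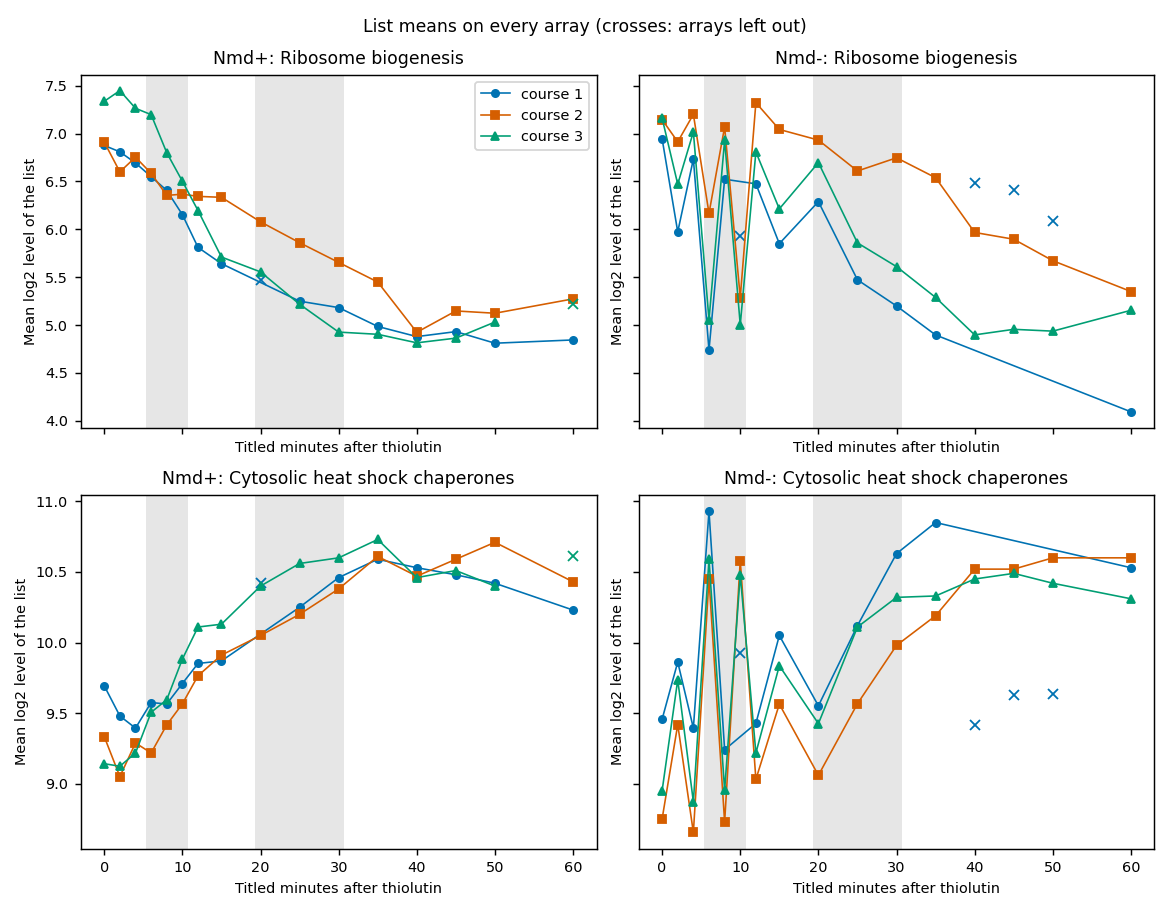
Mean log2 signal of the ribosome biogenesis and chaperone lists against minutes after thiolutin, with Nmd+ on the left and Nmd- on the right, a line for each course, crosses for arrays left out and shading for the windows compared. In Nmd+ the lists move in opposite directions between 6 and 30 min, whereas in Nmd- the arrays titled 6 and 10 min stand apart from those titled 4, 8 and 12 min.

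The difference between the strains had to be read with the time titles of the Nmd- arrays in view. In Nmd+ all 9 arrays at 6-10 min lay above all 20-30 min arrays of their own course for the ribosome biogenesis mean and below them for the chaperone mean. In Nmd- all 5 arrays used that are titled 6 or 10 min lay the other way round. Their ribosome biogenesis means were between 4.74 and 6.17 at 6 min and between 5.00 and 5.29 at 10 min, below every 20-30 min array of their own course, and their chaperone means were above every such array. The 3 Nmd- arrays titled 8 min lay above the 20-30 min arrays, with ribosome biogenesis means between 6.52 and 7.07. Why the Nmd- arrays at 6 and 10 min stand apart was not tested, and the titles were kept. In course 1 of Nmd-, the arrays at 20-30 min were also scanned in another period than those at 6 and 8 min, so time and scan period cannot be told apart there.

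With the arrays as titled, the log2 change was higher in Nmd+ than in Nmd- for 425 probe sets (4.58%) and lower for 652 (7.03%), and 204 and 454 of these were also called in the same direction in Nmd+ itself. For the change in Nmd-, taken from the same fit over the arrays of both strains, limma called 0 probe sets, with 880 at an unadjusted p under 0.05. When 8 min was the only early time in both strains, an alternative chosen after these values were seen, 0 probe sets differed between the strains, with 1002 at an unadjusted p under 0.05, whereas 435 and 589 were still called higher and lower in Nmd+. The difference also gave 0 calls without replicate 3, with 1486 at an unadjusted p under 0.05. The counts between strains were thus not obtained without the Nmd- arrays titled 6 and 10 min, and that fit also held fewer arrays.

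As titled, the ribosome biogenesis list had 96 of 141 probe sets with a lower change in Nmd+ than in Nmd-, and a median difference of -1.42. AAH1 changed by -2.62 in Nmd+ and by 1.15 in Nmd-, a difference of -3.76 ± 0.79 (SE, adjusted p = 0.00690 in limma). NSR1, NIP7, PTR2 and NOP1 followed, with differences of -3.22, -3.11, -2.84 and -2.82. On the other side SPG4 changed by 2.78 in Nmd+ and by -1.32 in Nmd-, a difference of 4.10 ± 0.98 (SE, adjusted p = 0.00932), and GRE1, SPS100, FIT2 and HXT5 had differences of 3.78, 3.54, 3.46 and 3.29. In none of these 10 genes did the Nmd- change itself pass, and the smallest adjusted p among them in Nmd- was 0.383, for PTR2.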

How the data were processed

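RNA of 3 thiolutin time courses per strain was hybridized to Affymetrix YG-S98 arrays. The log2 values deposited by the authors had passed background adjustment, normalization across arrays and probe set summary by RMA (robust multi-chip average). A log2 scale was assumed, since the maximum of 14.16 is higher than 11.09, the natural log of a saturated scanner reading. The deposited scanner description files hold text and gave only the scan period and chip lot. After 60 control probe sets were removed, 9275 of 9335 were tested. In the annotation supplied for the array 6504 of these have 1 gene name, 328 have several and 2443 have none.

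Changes at 20-30 over 6-10 min were fitted with limma 3.58.1 in R 4.3.3 (linear model, empirical Bayes moderation, Benjamini-Hochberg adjustment over all 9275). The replicate number was a block, because arrays of 1 number come from 1 culture. A call needed at least 1.5-fold and an adjusted p below 0.05. The difference between strains was an interaction term over the 17 arrays of each strain. The number of arrays and cultures limits the precision. The genes, gene lists, windows and the array left out were chosen with earlier results of these data known, and lists are described by counts and medians without a set test.

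Named genes were the 10 largest increases and decreases with a call, a single gene name and separate windows. To these came the members of a list with the lowest adjusted p (at most 4 of each) and the 5 largest strain differences each way. UPF1, KanMX4 and the genes the study followed singly, without YIL164C and YIL168W and with PPT2 added, were named too. Other called members were named after their values were seen. Steps were tested on simulated data. Sequences were not used here.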

Additional observations from a re-analysis of the deposited data

Results flagged for a closer look

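Of 428 groups of arrays examined, 10 held an array far from the others of its group by Dixon's criterion, where chance alone gives about 1 in 20, or 21.4. Among the 20-30 min arrays, SPG4 had 4.80 in the 20 min array of course 2, with 7.43 as the next lowest, and HSP30 had 10.16 in the same array, with 11.0 as the next lowest. The 30 min array of course 3 had 6.28 and 9.17 in 2 probe sets of FKS1, with 7.54 and 10.04 as the next lowest. At 6-10 min, SPS100 had 6.04 and SUL1 5.53 in the 10 min array of course 1, next to 5.31 and 4.82. The same array had 10.86 for SPI1 and 4.91 for CTA1, next to 11.46 and 3.87. MRPS17 had 5.55 in the 8 min array of course 2, next to 6.29. SGF11 had 7.10 in the 6 min array of course 3, next to 6.90. The 20 min array is the earliest of the later window and the 10 min array the latest of the earlier one, and whether this plays a part was not tested.

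The change differed between Nmd+ and Nmd- by the interaction term in limma, as the arrays are titled, for SPG4 (4.10), GRE1 (3.78), SPS100 (3.54), FIT2 (3.46), HXT5 (3.29), AAH1 (-3.76), NSR1 (-3.22), NIP7 (-3.11), PTR2 (-2.84) and NOP1 (-2.82), all as log2 change in Nmd+ minus log2 change in Nmd-. With 8 min as the only early time 0 probe sets passed this test.

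The Nmd+ array at 20 min of replicate 1, left out of the main comparisons, had a KanMX4 value of 8.28, above the highest of the Nmd+ arrays used, 5.52. It entered only the setting in which the arrays that go against their labels were put back.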

How the results depend on the processing

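The count called higher and lower in Nmd+ (393 and 627) moved by over 1.5 times under these settings: each culture counted once (replicate block on course means), 255 and 369; scan period 1 alone, 99 and 319; no fold minimum, 1192 and 1309; a 2-fold minimum, 116 and 234; and scaling on the stable transcripts, 134 and 1763, where 7.06% of calls were higher in place of 38.5%. Without the replicate block, 264 and 518 were called. Leaving out a replicate gave 293 to 470 higher and 415 to 795 lower, lowest without replicate 3. Leaving out a single array gave 346 to 436 and 558 to 685. In scan period 1 alone the share of calls that were higher was 23.7%. Of 213 named probe sets, 98 no longer passed at a 2-fold minimum, 95 in scan period 1 alone (where 4 more changed sign), 49 with each culture counted once, 36 without replicate 3 and 44 with the stable-transcript scale, where 14 others then passed. Of the called ones, ATG1 (-0.47) and MTR3 (0.16) changed sign, in scan period 1 alone. The other changes of sign were in probe sets near 0 that were not called: in scan period 1 alone IME2 (-0.10) and the uncalled ATG19 probe set (-0.0913), in scan period 2 alone IME1 (-0.000433), with the arrays that go against their labels put back IME1 (-0.00772) and ATG19 (-0.0629), and on the stable-transcript scale IME1 (-0.30), IME2 (-0.13) and ATG19 (-0.27). Leaving out a replicate or array gave IME1 between -0.000433 and 0.0899 and this ATG19 probe set between -0.0161 (without replicate 3) and 0.164.

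The difference between strains (425 higher and 652 lower) gave 68 and 194 without the replicate block, 1038 and 1108 with chip lot as a block, 418 lower within scan period 2, 177 and 391 at a 2-fold minimum, 120 and 1870 on the stable-transcript scale, 0 and 0 with 8 min as the only early time, and between 0 and 344 higher and 0 and 496 lower when a replicate was left out, with 0 without replicate 3 and 182 and 425 without replicate 2. Its calls were 619 and 808 when course 1 of Nmd- alone was left out, a setting chosen after seeing the data. The causes were not tested. Signal over background limits dim probe sets, and 3 cultures limit every p.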
